A study of Mus musculus with 6 samples.

Results

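The actin family of embryonic mouse hearts was followed through its 6 conventional genes: the striated muscle actins Actc1 and Acta1, the smooth muscle actins Acta2 and Actg2, and the cytoplasmic actins Actb and Actg1. They were taken by symbol from a gene table of 48709 rows, and all 6 passed the filter on low values. The tissue was heart of C57BL6/J embryos, in 2 genotypes with 3 polyA RNA libraries each. Double knockouts carried flox/flox alleles of RBPMS and RBPMS2, genes for a pair of RNA-binding proteins, together with a Cre transgene labelled XML Cre, which the submitters describe as acting in cardiomyocytes. Controls were littermates with the same flox/flox alleles and no Cre label. Every knockout library carried Cre and no group had Cre alone, so an effect of Cre cannot be told apart from loss of the genes. The embryonic stage, the promoter behind XML Cre and whether each library came from a separate embryo could not be taken from the labels, and p-values therefore reflect only how far these libraries spread. The comparison asks how these transcripts differ between the genotypes.

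The values are read counts normalised by the authors and rounded to whole numbers, and they summed to 19770390 to 20215282 per library. Rbpms, a targeted gene, was at 721, 699 and 670 in double knockouts 1 to 3, against 3551, 3853 and 3956 in controls 1 to 3. Rbpms2 was at 1676, 1257 and 1429 in the double knockouts, against 2444, 2571 and 2716 in the controls. For both, every knockout value lay below every control value. Libraries numbered 3 had a male pattern in both genotypes (Xist at 20 and 6, Eif2s3y at 1569 and 1207 in the knockout and the control) and the others a female one, so the actins and the other named genes were also fitted without both libraries numbered 3. No pair of libraries held identical values. Where 3 numbers follow a genotype below, they stand for its libraries 1, 2 and 3.

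Actins polymerise into the thin filaments that myosin pulls on and into the cytoskeleton beneath the plasma membrane. The heart uses cardiac alpha-actin (Actc1) as its main thin filament actin. Skeletal alpha-actin (Acta1) and smooth muscle alpha-actin (Acta2) are co-expressed in developing heart muscle and recede from it later. Gamma smooth muscle actin (Actg2) belongs mainly to visceral smooth muscle, and beta-actin and gamma-actin (Actb and Actg1) are made by nearly all cells. Transcription of several actin genes depends on SRF, serum response factor, which binds a sequence named the CArG box and works with cofactors of the myocardin family.

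The proteins are nearly alike, and the genes are therefore told apart in sequencing by their codons and untranslated ends. In GENCODE M21, an annotation of GRCm38 (mm10), coding sequences had 376 codons including the stop in Actb and Actg1, 377 in Actg2 and 378 in the other 3 genes. Identity between coding sequences lay between 81.5% (Actc1 with Actg1 and Acta2 with Actg1) and 88.7% (Actb with Actg1). The first 75 coding bases, the length of 1 read, are shown because they hold the amino-terminal codons by which the isoforms differ most. Capitals mark bases that differ from Actc1 in the alignment, and all 6 genes lie on the minus strand.
Actc1: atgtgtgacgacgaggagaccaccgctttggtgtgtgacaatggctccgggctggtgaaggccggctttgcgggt
Acta1: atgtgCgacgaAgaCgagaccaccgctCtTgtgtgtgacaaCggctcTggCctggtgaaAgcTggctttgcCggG
Acta2: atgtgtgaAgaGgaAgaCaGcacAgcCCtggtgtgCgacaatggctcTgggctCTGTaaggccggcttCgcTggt
Actg2: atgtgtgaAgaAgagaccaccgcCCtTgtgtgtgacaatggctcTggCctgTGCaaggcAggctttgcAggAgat
Actb: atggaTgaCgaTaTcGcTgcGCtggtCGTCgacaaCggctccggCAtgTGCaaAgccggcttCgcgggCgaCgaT
Actg1: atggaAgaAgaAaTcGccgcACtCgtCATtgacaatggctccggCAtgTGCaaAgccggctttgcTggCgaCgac
In these stretches 12 bases of Acta1, 16 of Acta2, 13 of Actg2, 23 of Actb and 20 of Actg1 differed from Actc1. No window of 75 bases in the main transcripts of Actc1, Acta2 or Actg2 occurred in a transcript of another gene. The same held for all but 6 of 1372 windows of Acta1 and all but 48 of 1846 windows of Actb, while 1023 of 1878 windows of Actg1 (54.5%) also occurred elsewhere, mostly in processed pseudogenes treated further on.

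RefSeq promoter sequences of GRCm38.p6 were given for 4 of the 6 genes: Actc1, Acta1, Acta2 and Actg1. In the 250 bases before the start site, a full CArG box on either strand was found in Actc1, Acta1 and Actg1. With at most 1 other base in its A/T centre, 4 matches were found in Actc1, 3 in Acta1, 2 in Acta2 and 1 in Actg1, each of these counts including any full box. Over all 32851 RefSeq promoters, 1.47% held a full box and 8.59% held a match with at most 1 other centre base. The full boxes and both Acta2 matches are shown with 10 bases on each side and the box in capitals.
Actc1, chr2:114052903-114052932, minus strand: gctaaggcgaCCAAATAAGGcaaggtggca
Acta1, chr8:123894829-123894858, minus strand: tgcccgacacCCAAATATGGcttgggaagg
Acta2, chr19:34255438-34255467, minus strand: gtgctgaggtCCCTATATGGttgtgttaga
Acta2, chr19:34255388-34255417, minus strand: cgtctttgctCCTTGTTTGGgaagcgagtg
Actg1, chr11:120348566-120348595, minus strand: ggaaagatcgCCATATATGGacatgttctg
The box began 47 bases before the start in Actc1, 73 in Acta1, 84 and 34 in Acta2 and 90 in Actg1. A match describes these letters only, and binding was not measured here.

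The muscle actins expressed at a substantial level were lower in the double knockout and both cytoplasmic actins were higher. Differences are given as log2 fold changes, knockout minus control, of value + 1, from a limma fit over 26747 genes, and an adjusted p under 0.05 (Benjamini-Hochberg over all tested genes) is called a change. Of the 6 actins 3 fell and 2 rose, and Actg2 did not pass. Among all tested genes 2.55% fell and 2.31% rose, 4.86% in all, and the median log2 fold change was 0.02. The libraries of the genotypes did not overlap for 5 of the 6 actins, as for 21.7% of all tested genes.

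Actc1 (ENSMUSG00000068614, chromosome 2, 114047282 to 114053548) was the most abundant actin. It was at 124462, 136201 and 132014 in the double knockouts, against 178253, 193011 and 191994 in the controls. The knockout libraries all lay below the controls, with a mean of 130890 ± 5949 against 187750 ± 8243 in controls (SD, n = 3 each). The log2 fold change was -0.52 with a 95% interval of -0.69 to -0.35 (limma adjusted p = 0.000647). The call was lost without both libraries numbered 3 (-0.51, limma adjusted p = 0.172) and without robust moderation of the variances (limma adjusted p = 0.0835).

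Acta1 (ENSMUSG00000031972, chromosome 8, 123891769 to 123894751) had the greatest relative fall of the family. It was at 1680, 1197 and 1049 in the double knockouts, against 5881, 6583 and 7019 in the controls. Knockout 1 was the highest of its group and still far below the lowest control. The means were 1309 ± 330 in knockouts and 6494 ± 574 in controls, a ratio of 0.202, and the log2 fold change was -2.34 with a 95% interval of -2.69 to -1.98 (limma adjusted p = 3.39e-05).

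Acta2 (ENSMUSG00000035783, chromosome 19, 34241090 to 34255590) fell nearly as far from a higher level. It was at 6843, 6575 and 4673 in the double knockouts, against 26108, 24630 and 28547 in the controls. The groups were widely apart, and the pair numbered 3 held both the lowest knockout and the highest control value. The means were 6030 ± 1183 in knockouts and 26428 ± 1978 in controls, a ratio of 0.228. The log2 fold change was -2.15 with a 95% interval of -2.42 to -1.88 (limma adjusted p = 4.32e-07).

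Actg2 (ENSMUSG00000059430, chromosome 6, 83512905 to 83536265) was close to absent. It was at 8, 22 and 13 in the double knockouts, against 18, 25 and 21 in the controls, and the groups overlapped. Its log2 fold change was -0.64 with a 95% interval of -1.34 to 0.07 (limma adjusted p = 0.321), which includes the difference of Actc1, so a change of that size was not detectable at these values. Because the tissue is a mixture, fewer cells of a type and less RNA per cell cannot be told apart here.

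Actb (ENSMUSG00000029580, chromosome 5, 142903115 to 142906754) was higher in the double knockout. It was at 25730, 27706 and 22284 in the double knockouts, against 16691, 19666 and 17406 in the controls. All knockout libraries exceeded all controls, knockout 3 by the least. The means were 25240 ± 2744 in knockouts and 17921 ± 1553 in controls, a ratio of 1.41. The log2 fold change was 0.49 with a 95% interval of 0.29 to 0.69 (limma adjusted p = 0.00387). The call was lost without control 1 (0.44, limma adjusted p = 0.0743), without both libraries numbered 3 (0.56, limma adjusted p = 0.172) and without robust moderation (limma adjusted p = 0.0876).

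Actg1 (ENSMUSG00000062825, chromosome 11, 120345690 to 120348542) was the second actin that rose. It was at 33227, 36823 and 31031 in the double knockouts, against 21166, 23096 and 19702 in the controls. The groups were apart, and within each genotype library 2 was the highest and library 3 the lowest. The means were 33694 ± 2924 in knockouts and 21321 ± 1702 in controls, a ratio of 1.58. The log2 fold change was 0.66 with a 95% interval of 0.47 to 0.85 (limma adjusted p = 0.000143), and 0.66 without both libraries numbered 3, where the call was lost (limma adjusted p = 0.0991).

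**Figure D1:**
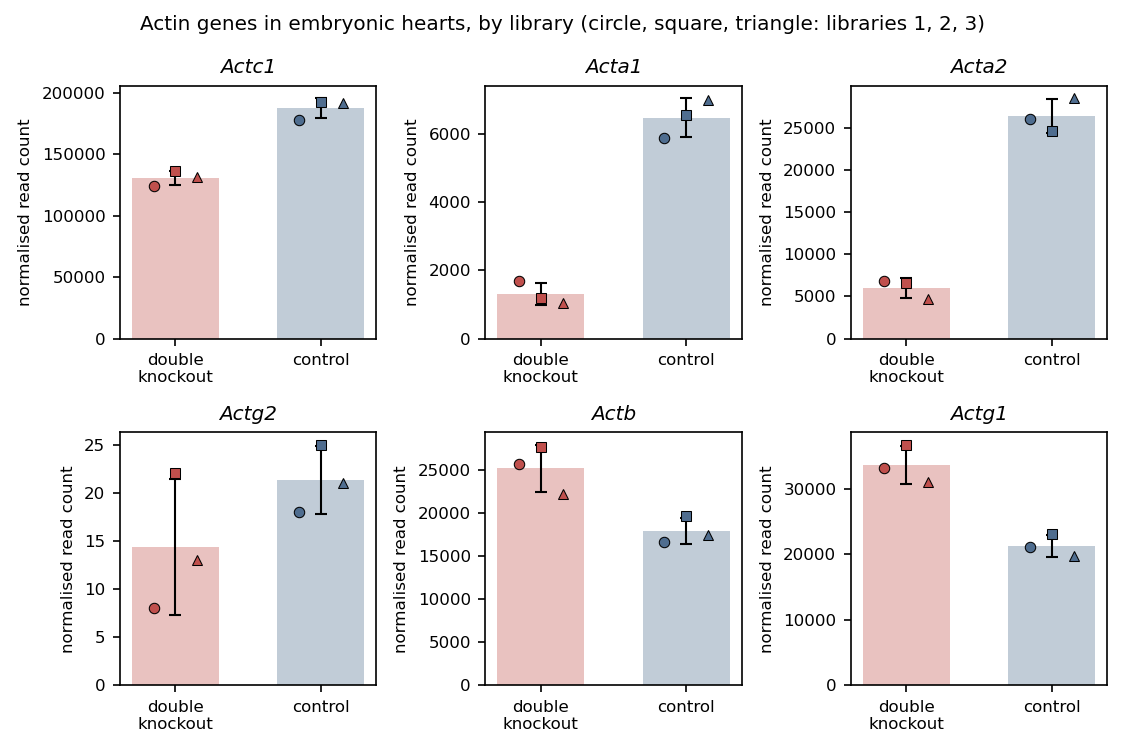
Normalised read count of each actin gene (vertical axis, a separate scale per gene) in double knockout and control libraries; bars are means, error bars SD (n = 3) and symbols the libraries. The genotypes overlap only for Actg2, which stayed at 25 or below in every library.

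Libraries were also compared within their number, which keeps female-pattern and male-pattern libraries apart. The log2 difference between same-numbered libraries was -0.52, -0.50 and -0.54 for Actc1 and 0.65, 0.67 and 0.66 for Actg1, the most even of the family. For Acta1 it was -1.81, -2.46 and -2.74, and for Acta2 -1.93, -1.91 and -2.61. For both of these the male-pattern pair, numbered 3, showed the widest gap. For Actb the differences were 0.62, 0.49 and 0.36, least in the pair numbered 3, and for Actg2 they were -1.08, -0.18 and -0.65. All 6 genes kept their direction in the 3 pairs. Each pair is 1 library against 1 library, so these are values with no test.

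**Figure D2:**
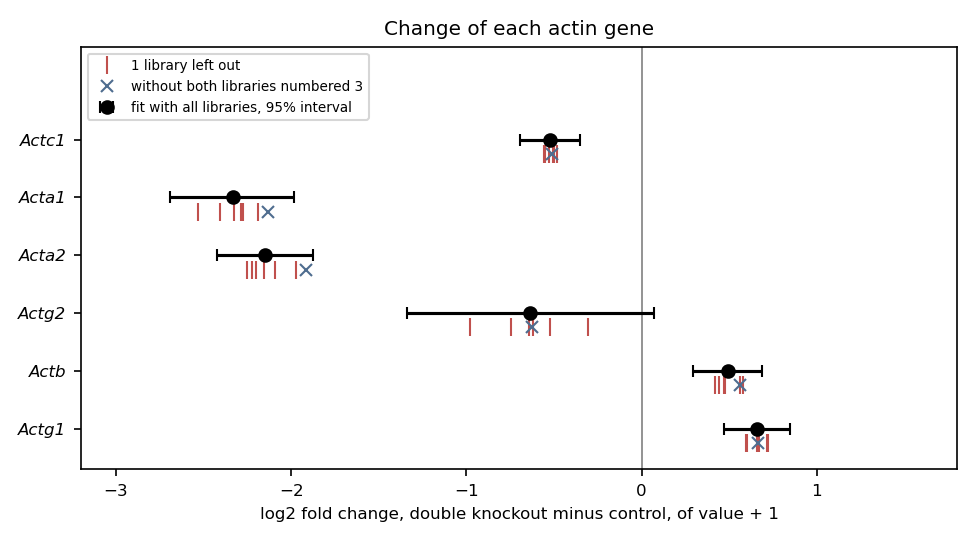
Log2 fold change of each actin gene, double knockout minus control, of value + 1 (horizontal axis), with its 95% interval from the fit with all libraries (black), the values with 1 library left out (red ticks) and the value without both libraries numbered 3 (blue crosses). Acta1 and Acta2 lie near -2.3 and -2.1, Actc1 near -0.5, Actb and Actg1 above 0, and the interval of Actg2 crosses 0.

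In summed values the family shrank and its make-up shifted towards the cytoplasmic genes. The 6 actins summed to 191950, 208524 and 191064 in the double knockouts, against 248117, 267011 and 264689 in the controls, a ratio of means of 0.759. The 4 muscle actins together stood at 138246 ± 5518 in knockouts and 220697 ± 9191 in controls, a ratio of 0.626. The 2 cytoplasmic actins together stood at 58934 ± 5607 in knockouts and 39242 ± 3071 in controls, a ratio of 1.502. None of these 3 sums overlapped between genotypes (exact permutation p = 0.1, two-sided, the smallest that 3 libraries against 3 can give). They are built from the actin values compared singly above, and how often sums of other genes fail to overlap was not computed. Summed over the muscle actins the mean difference was -82451 normalised reads, of which Actc1 made up 69.0%, Acta2 24.7% and Acta1 6.29%. The gains of Actg1 and Actb came to 19691, which is 23.9% of that loss, with 62.8% of it from Actg1. As a percentage of the summed values of all genes in the library, the family made up 0.990% in knockouts and 1.29% in controls.

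Shares of the family total are given next as the percentage of the summed value of the 6 actins in each library. The share of Actc1 was 64.8%, 65.3% and 69.1% in the double knockouts, against 71.8%, 72.3% and 72.5% in the controls. The controls lay within less than 1 point of each other and knockout 3 was closest to them. The means were 66.4% ± 2.33 in knockouts and 72.2% ± 0.351 in controls.

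The share of Acta2 was 3.56%, 3.15% and 2.45% in the double knockouts, against 10.5%, 9.22% and 10.8% in the controls. That of Acta1 was 0.875%, 0.574% and 0.549% in the double knockouts, against 2.37%, 2.47% and 2.65% in the controls. Acta1, Acta2 and Actg2 together thus held 3.73% ± 0.721 of the family in knockouts and 12.7% ± 0.893 in controls. Actg2 itself held between 0.00417% and 0.0106% in knockouts and between 0.00725% and 0.00936% in controls, with overlapping groups (exact permutation p = 0.7).

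The share of Actg1 was 17.3%, 17.7% and 16.2% in the double knockouts, against 8.53%, 8.65% and 7.44% in the controls. That of Actb was 13.4%, 13.3% and 11.7% in the double knockouts, against 6.73%, 7.37% and 6.58% in the controls. The cytoplasmic genes together held 29.9% ± 1.69 of the family in knockouts and 15.1% ± 1.01 in controls, a difference of 14.8 percentage points. The groups did not overlap for any of the 5 shares other than that of Actg2 (exact permutation p = 0.1, two-sided, the smallest possible here). A share can move because another member moved, and the shares of a library sum to 100%. Shares are built from the same values compared singly above and are no independent evidence. How often shares within other gene families fail to overlap was not computed.

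With Actc1 left out of the total, the cytoplasmic genes filled most of the remainder in the double knockout. Acta2 held 9.05% ± 1.11 in knockouts and 36.6% ± 3.06 in controls, and Acta1 held 1.97% ± 0.451 in knockouts and 8.99% ± 0.624 in controls. Actg1 held 50.9% ± 1.66 in knockouts and 29.5% ± 2.16 in controls. Actb held 38.1% ± 0.292 in knockouts and 24.8% ± 1.54 in controls. In each control library Acta2 had the greatest share of these 5 genes, and in each knockout library Actg1 had it. With the values of the Actg1 pseudogenes described further on added to Actg1, Actg1 had the greatest share in controls too. Actg1 then held 65.7% in knockouts and 43.9% in controls, and Acta2 held 6.32% in knockouts and 29.2% in controls. Such sums count a read more than once if it was counted at each gene it matches.

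**Figure D3:**
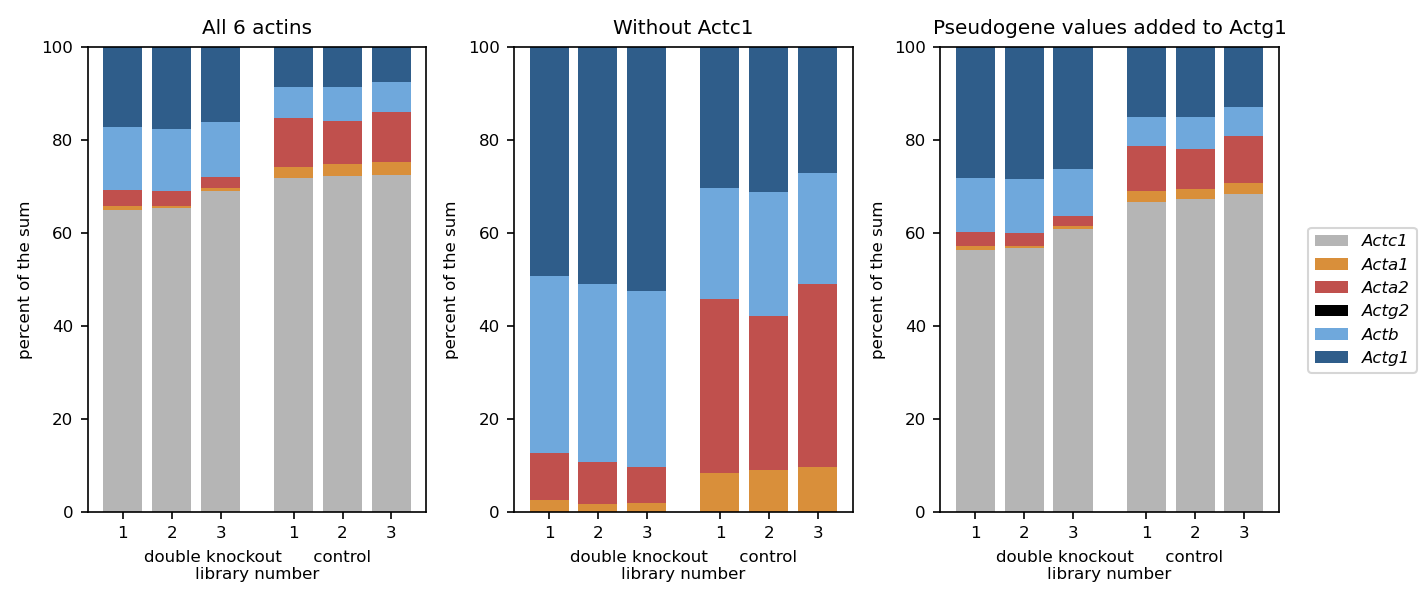
Percent of the summed value (vertical axis) held by each actin gene in each library (horizontal axis), over all 6 actins, without Actc1, and with pseudogene values added to Actg1. In the first panel the cytoplasmic share (blue) is 27.9% to 30.9% in double knockouts and 14.0% to 16.0% in controls, and Actg2 is too low to be seen.

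Values per kb of exon allow levels of different genes to be compared, and the order of the genes differed between the genotypes. In double knockouts the level per kb was 80898 for Actc1, then 12676 for Actg1, 9421 for Actb, 2746 for Acta2, 852 for Acta1 and 9.21 for Actg2. In controls it was 116040 for Actc1, then 12035 for Acta2, 8022 for Actg1, 6689 for Actb, 4228 for Acta1 and 13.7 for Actg2. Acta2 thus had rank 4 of the 6 in knockouts and rank 2 in controls. It lay above Actb in every control library and below Actb in every knockout library. Its place above Actg1 in controls rests on the Actg1 row as deposited. With pseudogene values added, Actg1 stood at 23461 per kb in knockouts and 14999 in controls, above Acta2 in every library of both genotypes. Acta2 then had rank 3 in controls and stayed at rank 4 in knockouts. The added values count a read again if it was counted at each gene it matches. In both orders of the rows as deposited each gene exceeded the next in every library, and no neighbours overlapped. Per-kb shares moved in the same directions as the shares of the values: the share of Actc1 was 75.9% in knockouts and 78.9% in controls, and that of Actg1 was 11.9% in knockouts and 5.46% in controls.

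Pairs of actins were also compared within each library by their log2 ratio, which no scaling of a whole library can move. Of 15 pairs, 13 did not overlap between genotypes, each with an exact permutation p = 0.1 (0.115 adjusted over the 15 pairs). How often ratios between other genes fail to overlap was not computed, so this count has no background to stand beside. The ratios are built from the same actin values that were compared singly above, and the count is no independent evidence of a difference. The log2 ratio of Actc1 to Acta1 was 6.67 ± 0.41 in knockouts and 4.86 ± 0.08 in controls, and that of Actc1 to Acta2 was 4.46 ± 0.33 in knockouts and 2.83 ± 0.12 in controls. The striated pair therefore separated by 1.82 and the cardiac and smooth muscle genes by 1.63. Against Actb, the difference in log2 ratio, knockout minus control, was -2.83 for Acta1, -2.64 for Acta2, -1.17 for Actg2 and -1.01 for Actc1. Ratios with Actg2, some of them among the 13 pairs, rest on Actg2 values of 25 or less. Actg2 did not pass when compared singly.

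The log2 ratio of Acta1 to Acta2 was -2.21 ± 0.22 in knockouts and -2.03 ± 0.12 in controls and overlapped between genotypes (difference -0.19, exact permutation p = 0.2, 0.214 adjusted). That of Actc1 to Actg2 also overlapped (difference 0.16, exact permutation p = 0.7). The ratio of Actb to Actg1 was -0.42 ± 0.05 in knockouts and -0.25 ± 0.08 in controls, and the groups did not overlap.

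Actg1 carries a limit that the other 5 genes do not, since 54.5% of its read-length windows also occur in other genes. Of 9 annotated processed pseudogenes that share windows with it, 7 had a row in the table. Pseudogenes of this kind are copies of a processed messenger RNA set back into the genome. Gm12715 on chromosome 4 holds 47.8% of the Actg1 windows. It was at 15592, 17103 and 13752 in the double knockouts, against 10063, 10852 and 8923 in the controls, which is 44.3% to 47.5% of the Actg1 value of the same library. Its log2 fold change was 0.64 (limma adjusted p = 0.000429), next to 0.66 for Actg1.

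The other pseudogenes hold less of the Actg1 sequence. Gm8399 on chromosome 13 holds 26.7% of the windows and stood at 20.9% to 22.9% of Actg1. Actg-ps1 on chromosome 8 holds 10.6% and stood at 9.13% to 9.99%, and Gm6375 on chromosome 6 holds 3.99% and stood at 4.03% to 4.69%. Of the rest, Gm5388 holds 1.01% and stood at 0.619% to 0.831%, Gm12003 holds 0.852% and stood at 1.87% to 2.299%, and RP23-419K14.11 holds 0.532% and stood at 1.05% to 1.54%, so the order of the values departs from that of the shared sequence among these 3. Log2 fold changes of the 7 lay between 0.29 and 0.68, and 5 of them rose; Gm5388 (0.50, limma adjusted p = 0.0705) and RP23-419K14.11 (0.29, limma adjusted p = 0.195) did not pass. The call of Gm12003 (0.55) was lost without control 3 or double knockout 3 (limma adjusted p up to 0.0795), without robust moderation (limma adjusted p = 0.101) and with the GC and length trend removed (limma adjusted p = 0.0545), and Gm5388 passed without control 2 (limma adjusted p = 0.0344). The pseudogenes share sequence with Actg1 and are no independent evidence of its rise.

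The 7 pseudogenes together came to 85.0% ± 2.17 of the Actg1 value in knockouts and 86.9% ± 2.84 in controls, and the groups overlapped. With their values added, Actg1 stood at 62359 ± 5752 in knockouts and 39867 ± 3479 in controls, and the log2 fold change was 0.65 (limma adjusted p = 0.000229). The share of Actg1 in the family was then 27.6% in knockouts and 14.3% in controls. The cytoplasmic share was 38.7% in knockouts and 20.8% in controls, and the ratio of the family sums was 0.811. Whether reads that match several genes were dropped, split or counted at each place was not stated. If they were counted at each place, the added values count the same reads more than once and overstate Actg1. The true level of Actg1 relative to the other actins therefore cannot be told, while the direction of its difference was the same with and without the pseudogenes.

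**Figure D4:**
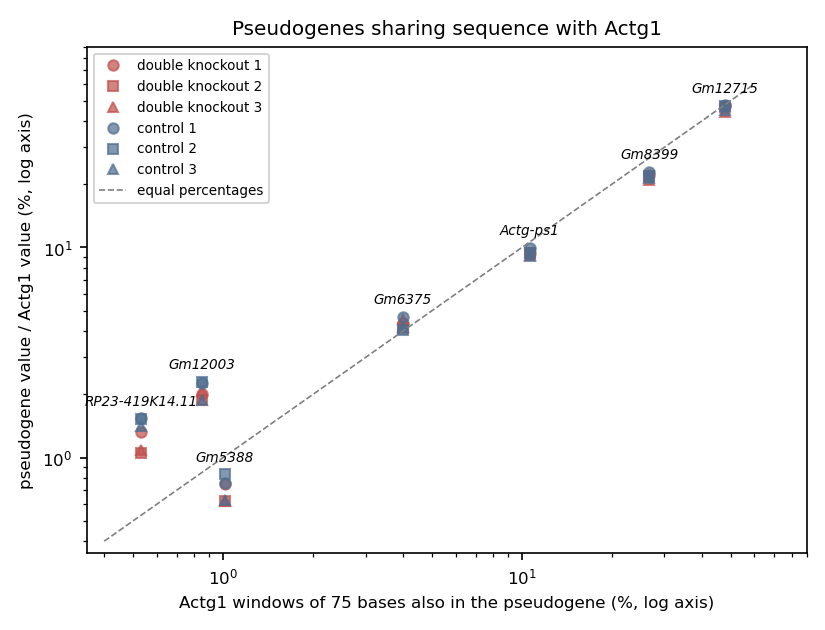
Value of each processed pseudogene as a percentage of Actg1 in the same library (vertical log axis) against the percentage of the 75-base windows of Actg1 that it holds (horizontal log axis); colours are genotypes and symbols libraries. The 4 pseudogenes that share the most sequence lie near the dashed line of equal percentages in both genotypes, and Gm12003 and RP23-419K14.11 lie above it.

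Genes that depend on SRF in smooth muscle were mostly lower beside the actins. Of a list of 18 without the actins, all tested, 11 fell, 1 rose and 6 did not pass. Among all tested genes 2.55% fell and 2.31% rose. The median log2 fold change of the list was -0.50, against 0.02 over all tested genes, and 15 members lay below 0. The members with the lowest adjusted p were Kcnmb1, Myl9 and Synpo2.

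Kcnmb1, the beta subunit of the large-conductance potassium channel, was at 96, 85 and 106 in the double knockouts, against 417, 386 and 474 in the controls (-2.14, limma adjusted p = 5.20e-09). Myl9, a regulatory myosin light chain, was at 7061, 7843 and 6422 in the double knockouts, against 16498, 16218 and 17759 in the controls (-1.25, limma adjusted p = 4.42e-08). Synpo2, an actin-bundling protein of the Z-disc, was at 1516, 1136 and 1372 in the double knockouts, against 2083, 2402 and 2266 in the controls (-0.75, limma adjusted p = 0.000127). The groups were apart for all 3, by the most for Kcnmb1, whose fall was close in size to those of Acta1 and Acta2. The riser, named because it was the only one, was the beta-tropomyosin gene Tpm2 (0.37, limma adjusted p = 0.0133), a call lost without control 1, 2 or 3 (limma adjusted p up to 0.0846) and without robust moderation, when 8 of the 18 were called. Without both libraries numbered 3, when 38 genes were called in all, 3 of the 18 were past the threshold: Kcnmb1 (-2.14), Myl9 (-1.14) and Cnn1 (-1.56). Synpo2 (-0.77, limma adjusted p = 0.170) and Tpm2 (0.42, limma adjusted p = 0.216) were not.

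SRF itself was lower at the level of its messenger RNA. Srf was at 1844, 1612 and 1779 in the double knockouts, against 2474, 2962 and 2792 in the controls (-0.65, limma adjusted p = 2.00e-04), and its call was lost without both libraries numbered 3 (-0.65, limma adjusted p = 0.153). No other gene of the list of SRF and its cofactors passed, of 7 tested, and the list median was -0.04. Myocd, the gene of the cofactor myocardin and named after its values were seen, averaged 1838 ± 420 in knockouts and 1849 ± 81 in controls (-0.04, limma adjusted p = 0.922).

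**Figure D5:**
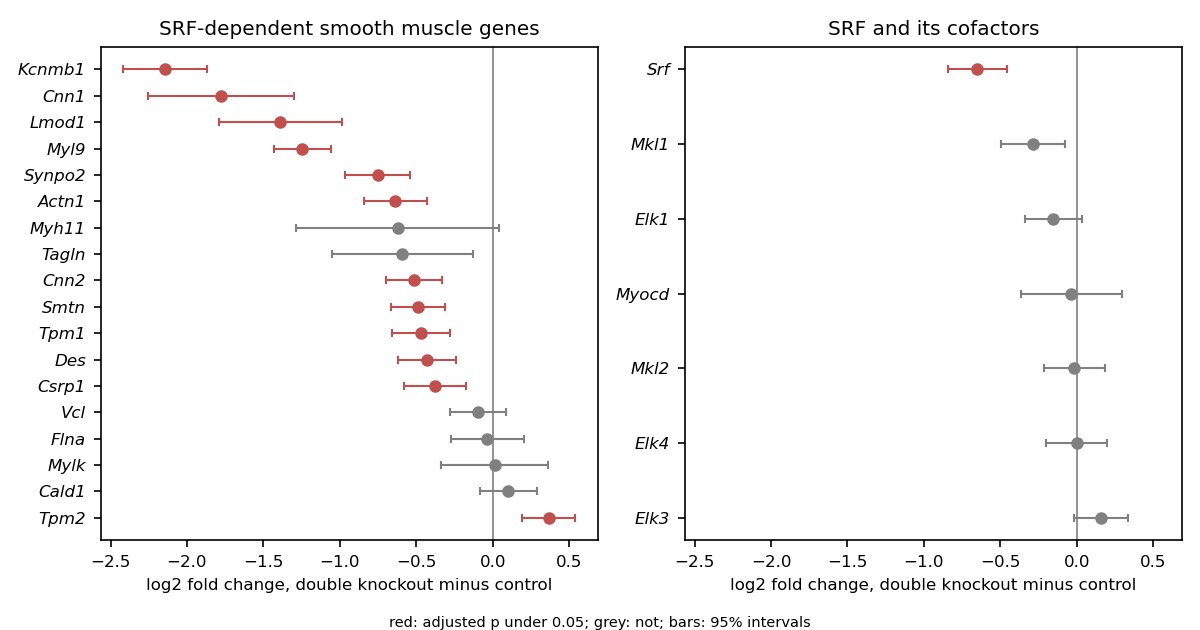
Log2 fold change, double knockout minus control (horizontal axis), with 95% intervals for 18 SRF-dependent smooth muscle genes and for SRF and its cofactors; red points have an adjusted p under 0.05. Of the left panel 11 genes fell and Tpm2 rose, and of the right panel Srf fell.

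The machinery that folds and modifies actin did not pass the test. The list held the subunits of the chaperonin CCT, which folds newly made actin, and those of prefoldin, which hands actin over to it. It also held enzymes that trim, acetylate or methylate actin, and the genes Pdcl3 and Txndc9. Of 19 tested members 0 rose and 0 fell in limma's fit, where 4.86% of all tested genes were called. Of the 19, 4 had an unadjusted p under 0.05, and 16 lay below 0 with a median of -0.04. Pdcl3 had the lowest adjusted p of the list (-0.30, limma adjusted p = 0.0647). With the trend with GC content and length removed, 3 members were called, among them Cct3. The most abundant by the mean over all 6 libraries were the CCT subunit genes Tcp1, with 7477 ± 289 in knockouts and 7801 ± 175 in controls (-0.06, limma adjusted p = 0.714), and Cct3, with 6093 ± 184 in knockouts and 6974 ± 243 in controls (-0.19, limma adjusted p = 0.190).

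Actin-related protein genes include subunits of the filament-branching Arp2/3 complex, of dynactin and of chromatin remodellers. Among 12 of them 0 rose and 0 fell in limma's fit, where 4.86% of all tested genes were called. The list had 4 members at an unadjusted p under 0.05, a median of 0.05 and 0 called under each alternative. Actr3, an Arp2/3 subunit gene, averaged 6272 ± 215 in knockouts and 5313 ± 190 in controls (0.24, limma adjusted p = 0.102). Actr2, its partner, averaged 3520 ± 259 in knockouts and 3425 ± 204 in controls (0.04, limma adjusted p = 0.844), with a sign that turned under some settings.

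Markers of the cell types a heart sample can hold were set beside the actins, and their part in the differences was not tested. The counts of called markers below stand beside 2.55% of all tested genes that fell and 2.31% that rose. Of 10 cardiomyocyte markers 1 fell, Myh6 (-0.82, limma adjusted p = 1.68e-05), and the summed level of the list was 484889 to 576745 in knockouts and 596447 to 648744 in controls. Without Myh6 the sums overlapped, at 409655 to 486614 in knockouts and 462612 to 499390 in controls. The most abundant gene in them was Myh7, with means of 212620 in knockouts and 208890 in controls. Of the 10 markers 9 lay below 0, with a median log2 fold change of -0.14. The groups did not overlap for 3 of the 10, as for 21.7% of all tested genes. The call of Myh6 was lost without both libraries numbered 3 (-0.77, limma adjusted p = 0.107). Of 9 tested smooth muscle and mural cell markers 2 fell, Cnn1 (-1.78) and Smtn (-0.49, with limma adjusted p = 0.180 without both libraries numbered 3). The sum was 11089 to 13265 in knockouts and 15701 to 15885 in controls. Cnn1 averaged 1569 in knockouts and 5238 in controls, a wider gap in value than that of any other member. Without Cnn1 the sums overlapped between the genotypes. Abcc9, the most abundant of the rest, averaged 5176 in knockouts and 4230 in controls and did not pass (limma adjusted p = 0.367). Of the 9, 6 lay below 0. Cnn1, Smtn and Myh11 are also on the list of SRF-dependent genes. Higd1b was at 0 in all libraries, and the smooth muscle myosin Myh11 was at 11 to 13 in knockouts and 13 to 26 in controls. The other members had means of 27.3 (Rgs5) to 5176 (Abcc9) in knockouts and 16.7 (Kcnj8) to 5238 (Cnn1) in controls.

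Of 8 tested skeletal muscle markers 1 fell, Tnnt3 (-0.65, limma adjusted p = 0.0251), and the sum was 699 to 935 in knockouts and 611 to 751 in controls. Pax7 was at 0 in all libraries, and the skeletal muscle regulator Myod1 was at 2 or less in each. The most abundant members were the fast troponin genes Tnni2, with means of 637 in knockouts and 444 in controls, and Tnnt3, with 83.7 in knockouts and 131 in controls. The sum of 10 fibroblast markers, of which Fbln1 fell, was 35664 to 52631 in knockouts and 37799 to 45461 in controls. That of 10 endothelial markers, of which Emcn rose, was 26336 to 31362 in knockouts and 24345 to 29385 in controls. Of 10 epicardial markers Krt19 and Muc16 rose and Lrrn4 fell, and the sum was 7710 to 9558 in knockouts and 7695 to 9303 in controls. These last 3 sums overlapped between the genotypes. Several of these marker calls rested on single libraries. Tnnt3 did not pass when control 1 or 3 or knockout 1 or 2 was left out (limma adjusted p up to 0.159), nor Fbln1 without control 3 (limma adjusted p = 0.0615). The calls of Emcn and Lrrn4 were each lost when any 1 of 5 libraries was left out, double knockout 1 being the exception for Emcn and double knockout 2 for Lrrn4. Muc16 passed only when control 2 or knockout 1 was the library left out, and with all libraries. Without both libraries numbered 3, none of the calls of Tnnt3, Fbln1, Emcn, Krt19, Lrrn4 and Muc16 was kept (limma adjusted p 0.205 to 0.542).

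Profiles most like those of the muscle actins were sought among 10616 protein-coding genes averaging 100 or more, by the root mean square difference of centred log2 values over the 6 libraries. The nearest to Acta1 and to Acta2 was the deleted gene Rbpms, at 0.18 from Acta1 and 0.22 from Acta2, followed for both by Casq1, which encodes the calcium store protein calsequestrin of skeletal muscle (0.26 from Acta1 and 0.23 from Acta2). Next came Kcnmb1 for Acta1 (0.27) and Cnn1, calponin of smooth muscle, for Acta2 (0.25). Casq1 was at 931, 805 and 936 in the double knockouts, against 3464, 3521 and 3879 in the controls. For Actc1 the nearest were Trim45 (0.04), a ubiquitin ligase gene, Ikbke (0.05), a kinase gene of innate immunity, and Arhgap1 (0.05), a GTPase-activating protein gene. These are descriptions of likeness over 6 libraries that differ mainly by genotype.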

How the data were processed

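PolyA RNA of 6 heart libraries was sequenced as single-end reads of 75 bases from 500 ng of RNA with a stranded kit, per the labels' protocols. Named in the submitters' processing notes are STAR 2.4.2a, Trimmomatic, DESeq, DESeq2, featureCounts 1.5.0 and the build mm10; their roles and the strand and multi-mapping settings are not given in those notes. The deposited values are a score: read counts scaled per library by the authors and rounded. This was read from whole numbers below 400 that were missing in 3 libraries. The mean gap between missing numbers put the reads of these libraries at 18760330 to 20054187. The estimate for control 2 rests on only 3 missing numbers. With no count per gene, no count model was run.

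Genes averaging 1 or more in either genotype were fitted with limma 3.58.1 in R 4.3.3 (log2(value + 1), variance trend, robust moderation, Benjamini-Hochberg). The fit was tested on simulated data. Shares and ratios were compared over libraries by exact permutation tests. Annotation was GENCODE M21, which held 99.3% of the identifiers; promoters were RefSeq. Overlapping genes added at most 9 normalised reads to a library and were ignored.

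Members, lists and tests were chosen with earlier results of these data known. Named were the actins, the 3 list members with the lowest adjusted p (the 2 most abundant where none passed) and the 3 nearest profiles. Alternatives changed scaling, filter, pseudocount, moderation, weights, the GC and length trend, libraries and the replicate block.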

Additional observations from a re-analysis of the deposited data

How the results depend on the processing

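Acta1 and Acta2 kept their direction and their call under every alternative run, with adjusted p up to 0.00993 for Acta1 and 0.00302 for Acta2. Moderation without the robust option ended the calls of Actc1 (-0.52, limma adjusted p = 0.0835) and Actb (0.49, limma adjusted p = 0.0876), with 350 genes called in place of 1299 and 8 in place of 12 SRF-dependent genes; the calls of Tpm2 (0.0509), Trim45 (0.0562), Gm12003 (0.101), Tnnt3, Fbln1, Emcn, Lrrn4 and Muc16 (0.095 to 0.143) ended as well. Without both libraries numbered 3, 38 genes were called, and the calls of Actc1 (-0.51, limma adjusted p = 0.172), Actb (0.56, 0.172) and Actg1 (0.66, 0.0991) ended, 3 SRF-dependent genes and 0 of SRF and its cofactors were called, and the pseudogene calls ended too. Leaving out control 1, control 3 or double knockout 3 gave 481, 420 and 496 calls.

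With 1 library left out, log2 fold changes lay between -0.56 and -0.48 for Actc1, -2.53 and -2.19 for Acta1, -2.25 and -1.98 for Acta2, -0.98 and -0.30 for Actg2, 0.42 and 0.58 for Actb (call lost without control 1) and 0.59 and 0.72 for Actg1. The share differences lay between -7.14 and -5.02 points for Actc1, -1.93 and -1.75 for Acta1, -7.60 and -6.82 for Acta2, 5.59 and 6.46 for Actb and 8.48 and 9.28 for Actg1. That of Actg2 lay between -0.0027 and 0.0005 and turned sign without double knockout 1 (0.0005).

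Per length of exon, the share differences were -3.01 (Actc1), -2.07 (Acta1), -5.62 (Acta2), 4.28 (Actb) and 6.42 points (Actg1). With Actc1 out of the total they were -7.02 (Acta1), -27.6 (Acta2), -0.008 (Actg2), 13.3 (Actb) and 21.4 (Actg1). With pseudogene values added, an alternative chosen after seeing the data, they were -9.40 (Actc1), 4.73 (Actb) and 13.3 (Actg1), and the ratio of family sums was 0.811; these follow from the changed total. In the actin folding list 1 member was called with a mean of at least 50, 3 with the GC and length trend removed and 1 without double knockout 2, so between 0 and 1 with 1 library left out. Actr2 turned to -0.0839 with the GC and length trend removed and to -0.0595 without both libraries numbered 3, and lay between -0.0211 and 0.0849 with 1 library left out, below 0 without double knockout 3. Except as stated, the cause of these moves was not tested.

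Same-numbered libraries of the 2 genotypes deviated together with correlations of 0.05, 0.07 and 0.33 over 13805 genes. Libraries 1 and 2 crossed between genotypes gave 0.17 either way, and library 3 crossed with 1 or 2 gave -0.20 to -0.19. Libraries numbered 3 are also those with the male pattern, so whether the numbers pair the samples cannot be told. With the replicate block 1355 genes were called, 13 of the SRF-dependent list among them, and no actin call changed: adjusted p was 0.00365 for Actc1, 2.25e-12 for Acta1, 1.27e-16 for Acta2, 0.309 for Actg2, 0.00428 for Actb and 6.98e-05 for Actg1. Actg2 stayed at 25 or below in every library.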
